A study of Homo sapiens with 54 samples.

Results

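Cells that had received 5 daily doses of 1 mM dopamine were compared with cells that had received a single dose, both read 1 h after the last dose. The comparison rests on 6 RNA-seq libraries, 3 of Chronic 1 h and 3 of Acute 1 h at 1 mM. They are among 53 libraries in 18 conditions that had a table, not all of which were used here. The members were the libraries whose titles carry these conditions. The cells were hMSN-like cells, cultures differentiated with Activin A from the human embryonic stem cell line H9 (WA09) towards medium spiny neurons, the main projection neurons of the striatum. Acute cultures received 1 mM dopamine in 100 uM ascorbic acid for 60 min on day in vitro 45. Chronic cultures received the same incubation once a day for 5 days, with the medium replaced between doses, and were collected on day in vitro 50. The groups therefore differ in the number of doses and in the age of the culture, and the effects of these cannot be told apart within the 6 libraries. The PBS libraries of the same experiment received no dopamine, and the day in vitro on which they were collected is not given in the sources used here. No source states that they received ascorbic acid. Against PBS, the effects of dopamine and of ascorbic acid therefore cannot be told apart. All groups come from the single cell line H9, no label says that the replicates come from separate differentiations, and the p-values below measure only the spread between these libraries, which may be technical.

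Dopamine acts on D1-like receptors, which raise cyclic AMP, and on D2-like receptors, which lower it. In medium spiny neurons a single exposure switches on immediate early genes, a group of transcription factors and feedback inhibitors that are transcribed within minutes of a stimulus without new protein synthesis. With repeated exposure part of this response is known to decline in rodents, which is called gene desensitization. Serum response factor, YAP with TEAD, Wnt and BMP signaling have short-latency target genes of their own, and the hypoxia-inducible factors act on genes for glucose use and blood vessel growth.

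The 6 libraries held 13707122 to 17053743 reads on exons. Replicates of a group correlated with r of 0.994 to 0.995 on log2 CPM (reads scaled to library size). The share of gene reads that lay in introns was 12.3 to 13.2% in Acute 1 h and 20.6 to 20.9% in Chronic 1 h, with no overlap. It was 19.5 to 21.8% in PBS, 12.5 to 15.9% in Acute 24 h and 18.9 to 22.4% in Chronic 24 h. Exon reads were used for the main test, and total gene reads, which add the intron reads, are given beside many of the results. For a gene list, counts by total gene reads cover the members tested by exon reads. Levels are given as TPM, the exon reads of a gene per exon length scaled to a fixed total per library. The cultures expressed the general neuronal markers STMN2, MAPT and DCX among others. Of the defining striatal markers, PPP1R1B, which encodes DARPP-32, lay at 12.8 to 14.9 TPM in Acute 1 h and at 9.92 to 15.8 TPM in Chronic 1 h, while the dopamine receptor genes DRD1 and DRD2 lay between 1.27 and 4.25 TPM. NKX2-1, a marker of the neighbouring medial ganglionic eminence, lay at or under 0.241 TPM in all 6 libraries, and the 8 microglia markers summed to 0.976 to 3.25 TPM.

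Of 16803 genes tested with edgeR's quasi-likelihood test, 3656 (21.8%) were higher and 3732 (22.2%) lower after chronic than after acute dosing at a Benjamini-Hochberg adjusted p under 0.05. Most of these differences were small, with a median absolute log2 fold change of 0.39 over the calls and 4722 calls under 0.5. A fit of the same contrast over all 15 libraries of the 1 mM experiment called 2008 of 17804 genes. The counts of calls below are those of the 6 libraries. Differentially expressed genes (DEGs) were those called that also differed by 1 or more on the log2 scale and averaged 1 TPM or more in the higher group. By this rule 441 genes (2.62%) rose and 310 (1.84%) fell. Among them 41 rose and 36 fell by at least 2 on the log2 scale. The 2 directions differed in kind of gene, since long noncoding RNAs made up 32.9% of the DEGs that rose and 11.6% of those that fell, against 11.1% of all genes tested. The median level of the DEGs in their higher group was 3.59 TPM for those that rose and 8.59 TPM for those that fell. The median log2 fold change of all genes tested was 0.01 by exon reads. By total gene reads the fold changes of the same 16803 genes shifted by a median of -0.17, and their median was -0.09. Of them 3243 were called higher and 6166 lower. The library sizes that scale total gene reads include intron reads, whose share was higher in Chronic 1 h. A gene with few intron reads therefore gets a lower value by total gene reads than by exon reads. Counts by total gene reads below are to be read against these shares of all genes.

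**Figure D1:**
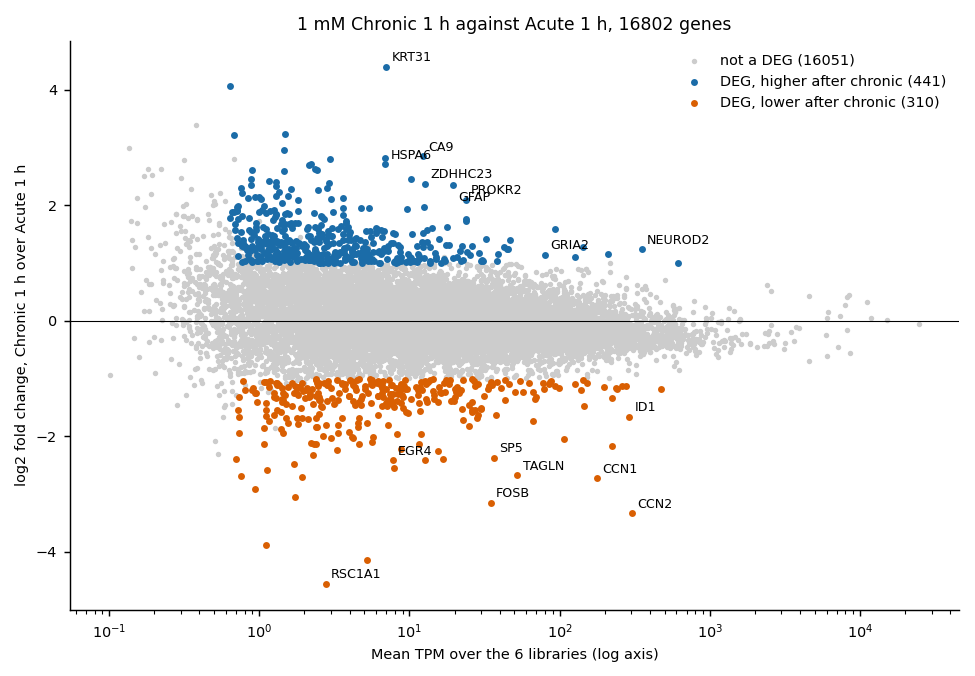
Each point is a gene, with its mean TPM over the 6 libraries on the log horizontal axis and the log2 fold change of Chronic 1 h over Acute 1 h on the vertical axis. The 441 DEGs that rose are blue and the 310 that fell are orange, and CCN2, CCN1, FOSB and TAGLN stand out as abundant genes with large falls. A gene with a mean TPM of 0 is not drawn.

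The 12 largest falls and the 12 largest rises were taken among DEGs with a mean of at least 5 TPM in the higher group and no overlap between the groups. The falls were RSC1A1, CCN2, FOSB, CCN1, TAGLN, EGR4, MYL9, DKK2, SP5, H2AC18, PTGER3 and EDN1, with log2 fold changes from -4.55 to -2.22. The rises were KRT31, CA9, HSPA6, ZDHHC23, GFAP, PROKR2, ANGPTL4, MMP28, UAP1L1, VXN, CRYM and ISM2, with log2 fold changes from 4.41 to 1.84. RSC1A1 lies within another gene (DDI2) and H2AC18 has a near-identical copy (H2AC19), so their reads are uncertain. RSC1A1 had 5 reads in Chronic 1 h replicate 1 and none in the other chronic libraries, and the fitted value of -8.27 without that replicate is no bound. KRT31, which encodes a hair keratin, was at 0.374 to 0.698 TPM in Acute 1 h, with 2 to 4 reads per library, and at 13.0 to 13.8 TPM in Chronic 1 h. HSPA6, an inducible HSP70 chaperone, was at 1.18, 1.67 and 2.27 TPM in Acute 1 h and at 7.42, 24.3 and 4.40 TPM in Chronic 1 h. The groups do not overlap for either gene, but HSPA6 varied far more among its chronic libraries. Its log2 fold change went from 2.72 to 1.70 without Chronic 1 h replicate 2, and its call was lost in a fit over all 15 libraries of the 1 mM experiment.

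The immediate early genes of the FOS and EGR families were mostly lower after the fifth dose than after the first. FOSB, an AP-1 subunit whose long-lived splice product accumulates in the striatum with repeated drug exposure, was at 76.5, 54.0 and 55.4 TPM in Acute 1 h. It was at 8.20, 8.53 and 5.68 TPM in Chronic 1 h and at 0.332, 0.438 and 0.988 TPM in PBS. All 3 chronic libraries lay far below all 3 acute ones and far above PBS, and FOSB fell by 3.15 on the log2 scale (SE 0.15, edgeR's quasi-likelihood test with Benjamini-Hochberg adjusted p = 3.01e-08). EGR1, a zinc finger factor used as a marker of neuronal activity, was at 532, 483 and 551 TPM in Acute 1 h and at 332, 370 and 344 TPM in Chronic 1 h. In PBS it was at 19.2, 13.9 and 17.8 TPM. The chronic libraries were thus lower than the acute ones with no overlap, by 0.68 on the log2 scale (SE 0.06, edgeR adjusted p = 1.62e-06), and still far above PBS. Its relatives fell by more, with log2 fold changes of -2.42 for EGR4, -1.82 for EGR3 and -0.99 for EGR2. FOS itself was at 223 to 262 TPM in Acute 1 h, 157 to 168 TPM in Chronic 1 h and 12.6 to 19.1 TPM in PBS.

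Of the 9 tested FOS and JUN family genes, 5 fell and 1 rose, with a median log2 fold change of -0.36. ATF3, a stress-induced partner of JUN, fell by 1.12, and JUN went the other way, from 302 to 342 TPM in Acute 1 h to 424 to 442 TPM in Chronic 1 h. All 3 NR4A orphan nuclear receptors and all 4 EGR factors fell, and of this list of 9 only the EGR co-repressor NAB2 was called higher, at a log2 fold change of 0.19. That call was lost with DESeq2 size factors, and its value was -0.10 by total gene reads. Of 31 other immediate early genes, 18 fell and 2 rose. ID1 and ID3, inhibitors of differentiation and direct BMP targets, fell by 1.66 and 1.46. IER3, a stress-responsive survival gene, fell by 1.13, MYC by 0.75 and KLF4 by 0.86. SOCS3, the feedback inhibitor of JAK-STAT signaling, was among the 2 that rose, from 73.1 to 97.3 TPM in Acute 1 h to 120 to 142 TPM in Chronic 1 h, with PBS at 6.48 to 9.44 TPM. The calls of EGR1, EGR2, FOS, JUNB, ATF3 and KLF4 were lost in a fit over all 15 libraries of the 1 mM experiment, in which the replicates of Acute 24 h differ widely for these genes.

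Activity genes outside these families were split by exon reads. ARC, which encodes a synaptic protein that forms RNA-carrying capsids, was at 78.6, 69.5 and 69.7 TPM in Acute 1 h and at 83.1, 77.4 and 65.4 TPM in Chronic 1 h, with PBS at 11.2 to 13.4 TPM. The 2 dopamine groups overlap, and the log2 fold change was -0.04 (SE 0.08, edgeR adjusted p = 0.696) by exon reads. It was -0.32, and called, by total gene reads. The second value includes the change of scale between the 2 counts, so it does not by itself show a fall of ARC. Of 23 activity-induced synaptic and secreted genes, 7 rose and 8 fell by exon reads, but 3 rose and 13 fell by total gene reads. NPAS4, a neuron-specific activity factor, fell by 0.70. The neurotrophin gene BDNF rose by 0.51, a call lost by total gene reads, the protocadherin gene PCDH8 by 1.05 and the neuritin gene NRN1 by 0.84. Of 21 feedback inhibitors of ERK signaling, 8 fell and 6 rose. The MAP kinase phosphatase genes DUSP1 and DUSP6 fell by 0.62 and 0.41, while DUSP7 rose by 0.47, a call lost by total gene reads. The median of the list was 0.08 by exon reads and -0.20 by total gene reads, by which 12 were lower and 1 higher. Of 24 cAMP and CREB response genes, 8 rose and 4 fell (6 and 5 by total gene reads), with PDE1A, a calcium-dependent phosphodiesterase, at 21.3 to 26.98 TPM in Acute 1 h and 59.2 to 63.6 TPM in Chronic 1 h.

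**Figure D2:**
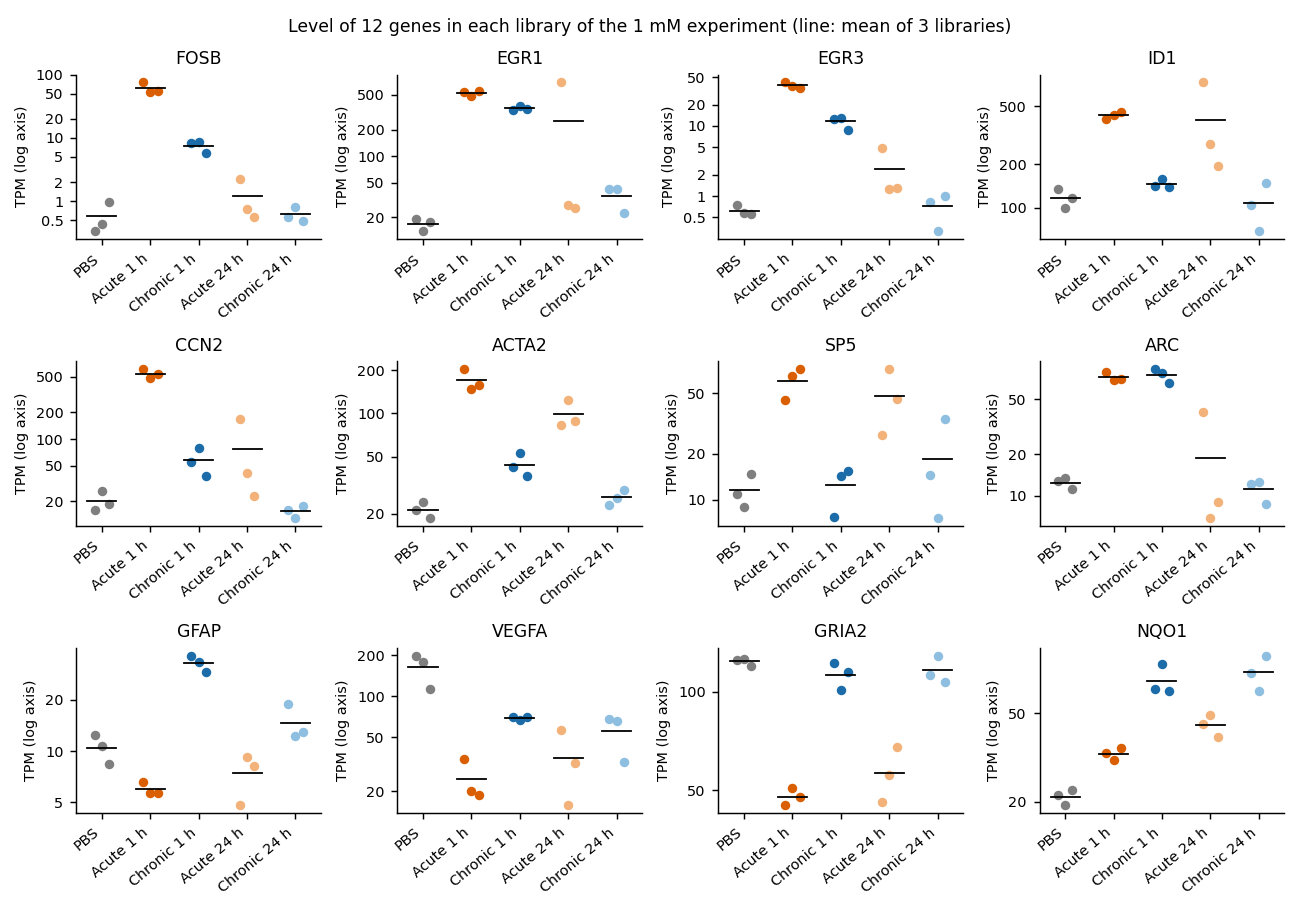
The TPM of 12 genes (log axis) in each library of the 1 mM experiment, with a line at the mean of the 3 libraries of a group. FOSB, EGR1, EGR3, ID1, CCN2, ACTA2 and SP5 were lower in Chronic 1 h than in Acute 1 h, ARC overlapped between them, and GFAP, VEGFA, GRIA2 and NQO1 were higher. Replicate 1 of Acute 24 h lies apart from the other 2 for EGR1, ARC and CCN2.

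Promoters of 4 genes are printed to show motifs that lie in them, because members of 3 target lists moved together. Each runs from 250 bases before to 50 bases after the RefSeq start in GRCh38.p14, in the direction of the gene. The motifs were the CArG box, bound by serum response factor, GGAATG, bound by TEAD, and the hypoxia response core ACGTG or GCGTG, each searched on both strands. Capitals mark the matches of 1 motif in each promoter, the one named with it below, and other motifs stay in lower case. The first is EGR1 at chr5:138465229-138465528 on the plus strand, which carries 2 CArG boxes. ACTG2, the enteric smooth muscle actin gene, lies at chr2:73892758-73893057 on the plus strand and carries 2 CArG boxes. CCN2 at chr6:131951323-131951622 on the minus strand carries 3 GGAATG matches. CA9 at chr9:35673678-35673977 on the plus strand carries 1 hypoxia response core.
EGR1: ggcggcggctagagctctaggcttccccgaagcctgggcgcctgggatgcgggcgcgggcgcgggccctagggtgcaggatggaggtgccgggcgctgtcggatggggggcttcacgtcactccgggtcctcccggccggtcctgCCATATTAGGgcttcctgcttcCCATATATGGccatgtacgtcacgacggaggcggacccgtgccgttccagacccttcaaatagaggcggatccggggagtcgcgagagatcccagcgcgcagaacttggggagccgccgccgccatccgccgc
ACTG2: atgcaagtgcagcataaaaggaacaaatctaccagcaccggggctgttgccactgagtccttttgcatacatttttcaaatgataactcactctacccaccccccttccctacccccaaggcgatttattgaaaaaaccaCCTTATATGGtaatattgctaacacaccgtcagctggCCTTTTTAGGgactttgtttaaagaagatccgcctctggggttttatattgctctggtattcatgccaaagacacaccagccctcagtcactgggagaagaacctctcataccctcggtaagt
CCN2: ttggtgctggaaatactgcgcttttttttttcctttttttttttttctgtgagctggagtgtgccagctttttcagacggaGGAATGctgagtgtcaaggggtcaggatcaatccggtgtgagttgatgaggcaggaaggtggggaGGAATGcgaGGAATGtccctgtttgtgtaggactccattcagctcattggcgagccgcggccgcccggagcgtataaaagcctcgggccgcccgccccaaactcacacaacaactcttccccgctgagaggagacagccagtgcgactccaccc
CA9: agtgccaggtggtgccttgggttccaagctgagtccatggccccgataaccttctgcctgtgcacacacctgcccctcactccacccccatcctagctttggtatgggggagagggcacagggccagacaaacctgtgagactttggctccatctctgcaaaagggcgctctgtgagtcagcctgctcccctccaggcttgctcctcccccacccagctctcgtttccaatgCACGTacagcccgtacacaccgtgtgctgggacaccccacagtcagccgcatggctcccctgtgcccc

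These matches are a description of the letters in the window and were not tested for binding. A CArG box lay in 8 of 23 promoters matched for the serum response factor and actin list (34.8%), against 1.29% of all 27305 promoters. GGAATG lay in 6 of 17 promoters of the Hippo-YAP list (35.3%), against 14% of all promoters. A hypoxia response core lay in 21 of 26 promoters of the hypoxia list (80.8%), against 48.4% of all promoters and 61.8% of the 12061 promoters of tested genes. The DEGs as a whole gave other shares. Of 215 matched promoters of DEGs that fell, 2.79% held a CArG box, 15.3% GGAATG and 53.5% a hypoxia response core, and of 218 of DEGs that rose, 1.83%, 12.8% and 44.5%. The genes tested stood at 1.09%, 10.9% and 61.8%. These lists were written from known target genes, and such motifs are part of what makes a gene a known target.

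YAP and TEAD targets and actin genes were lower after chronic than after acute dosing. CCN2, the connective tissue growth factor gene, was at 616, 483 and 535 TPM in Acute 1 h, at 55.8, 80.3 and 38.2 TPM in Chronic 1 h and at 15.9, 26.0 and 18.7 TPM in PBS. The chronic libraries lay between the acute and the PBS libraries without touching either, and the fitted fall was 10.0-fold (log2 fold change -3.33, SE 0.17, edgeR adjusted p = 6.31e-08). Its relative CCN1 fell by 2.72 on the log2 scale. Of 24 Hippo-YAP genes, 17 fell and 5 rose, with a median of -0.45, and the summed level was 1861 to 2172 TPM in Acute 1 h, 983 to 1112 TPM in Chronic 1 h and 867 to 915 TPM in PBS. YAP1 itself fell by 0.73 and TEAD2 by 0.66. LATS2, the kinase that inhibits YAP and is also a YAP target, rose by 1.04.

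No member of the serum response factor and actin list was called higher, and 21 of 26 fell, with a median of -0.47. ACTA2, the vascular smooth muscle actin gene, was at 204, 147 and 157 TPM in Acute 1 h and at 42.5, 52.6 and 36.7 TPM in Chronic 1 h, and PBS was at 18.6 to 24.1 TPM. TAGLN, an actin-bundling protein gene, fell by 2.67, MYL9, a myosin light chain gene, by 2.40 and CNN1, a calponin gene, by 1.81. The abundant cytoplasmic actin gene ACTB fell by 0.35, from 3797 to 4145 TPM to 3203 to 3338 TPM. The summed level of the list was 12902 to 13794 TPM in Acute 1 h and 9541 to 9938 TPM in Chronic 1 h, against 9199 to 9877 TPM in PBS. Total gene reads gave 24 lower and none higher in this list. The mesenchymal and endothelial markers, some of which are contractile cell genes, moved in part with it, since 6 of the 13 tested fell and 1 rose (6 and 2 by total gene reads). Their summed level was 161 to 166 TPM in Acute 1 h and 122 to 150 TPM in Chronic 1 h, with POSTN, LUM and PDGFRB not called. In bulk RNA fewer cells of a type and less RNA per cell cannot be told apart, and the part of such cells in the result was not tested.

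Wnt and BMP signaling genes fell as well. SP5, a direct transcriptional target of beta-catenin, was at 44.8, 64.5 and 72.0 TPM in Acute 1 h and at 7.69, 14.4 and 15.3 TPM in Chronic 1 h, with PBS at 9.02 to 14.8 TPM. Of 40 Wnt pathway genes, 29 fell and none was called higher by exon reads, with a median of -0.59, and 1 was higher and 31 lower by total gene reads. The feedback targets AXIN2, NKD1 and LEF1 fell by 0.73, 1.22 and 0.58, the secreted antagonists DKK2 and DKK1 by 2.39 and 1.76, and the ligand gene WNT7B by 1.10. Of 39 tested TGF-beta and BMP pathway genes, 24 fell and 4 rose, with a median of -0.29. The ligand genes BMP2 and BMP4 fell by 1.10 and 1.09, and the inhibitory SMAD genes SMAD6 and SMAD7 by 1.29 and 0.43. The BMP antagonist GREM1 and the stress-induced ligand GDF15 rose by 1.10 and 1.30. In the Notch list 9 of 17 fell and 3 rose (11 and 1 by total gene reads), with HES1 at -0.61 and NOTCH1 at 0.42, the latter not called by total gene reads.

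Progenitor and ribosomal genes were lower after chronic dosing. Of 22 progenitor and cell cycle markers 20 fell, none rose and the median was -0.47. CCND1, which encodes cyclin D1, was at 105 to 120 TPM in Acute 1 h and 56.7 to 61.7 TPM in Chronic 1 h, and the replication licensing gene MCM2 fell from 114 to 128 TPM to 70.4 to 82.3 TPM. The stem cell factor SOX2 fell by 0.29 and the proliferation marker MKI67 by 0.42. For MKI67, PBS at 73.1 to 82.4 TPM overlapped Acute 1 h at 70.5 to 73.8 TPM and lay above Chronic 1 h at 56.3 to 60.1 TPM. Of 81 ribosomal protein genes 76 fell and none rose, with a median of -0.34, for example RPS6 from 1308 to 1373 TPM to 902 to 954 TPM. For RPS6 alone PBS lay between the groups, at 1130 to 1230 TPM. The summed level of all 336 genes of the list was 63281 to 71252 TPM in PBS and 65655 to 69171 TPM in Acute 1 h, which overlap. In Chronic 1 h it was lower than in both, at 54958 to 57458 TPM. Ribosomal protein genes have many near-identical pseudogenes, so single members are uncertain. Of 31 cholesterol and fatty acid synthesis genes 16 fell and 2 rose by exon reads (27 and 1 by total gene reads), with MSMO1, a sterol oxidase gene, at 0.62. Their summed level overlapped between the groups, at 4536 to 5089 TPM and 4336 to 4796 TPM.

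**Figure D3:**
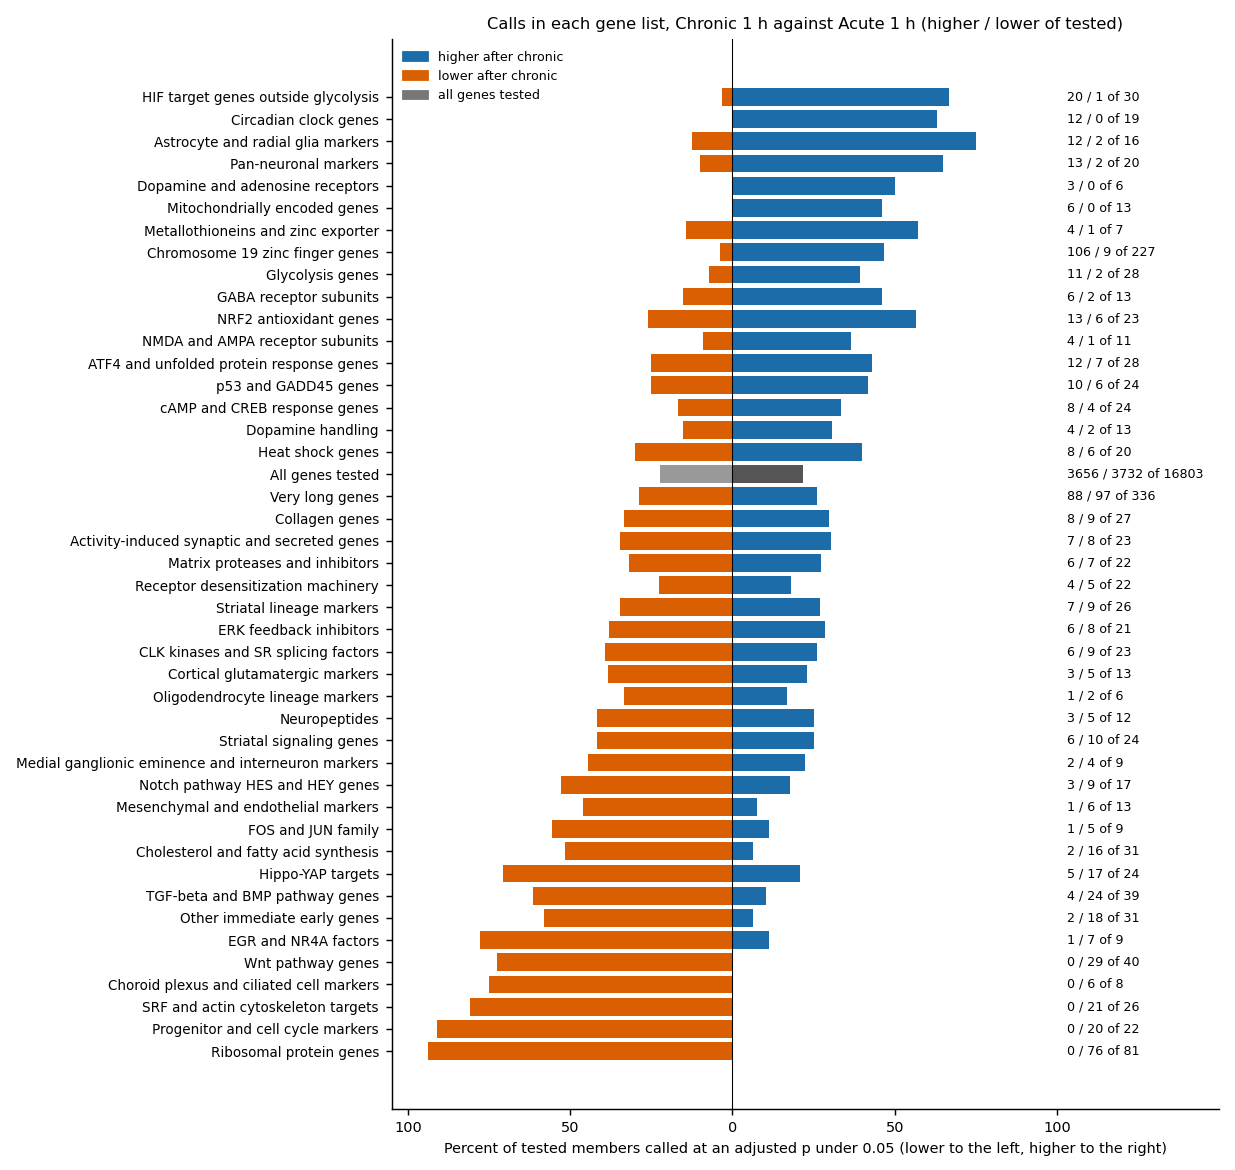
For each gene list, bars to the right give the percent of tested members called higher and bars to the left the percent called lower in Chronic 1 h against Acute 1 h, with the counts at the right edge. The gray bars for all 16803 genes stand at 21.8% higher and 22.2% lower. The ribosomal, progenitor, actin, choroid plexus and Wnt lists hold no member called higher, and the circadian, mitochondrial and dopamine and adenosine receptor lists none called lower.

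The hypoxia-inducible factor targets went the other way. CA9, a membrane carbonic anhydrase gene, was at 3.63, 2.44 and 2.28 TPM in Acute 1 h, at 28.3, 24.6 and 12.7 TPM in Chronic 1 h and at 30.0, 53.8 and 20.6 TPM in PBS. It was thus low in the acute libraries, whereas the chronic libraries overlapped PBS, and the log2 fold change was 2.85 (SE 0.32, edgeR adjusted p = 1.36e-05). VEGFA, the vascular growth factor gene, was at 34.7, 20.0 and 18.9 TPM, at 70.6, 67.2 and 70.5 TPM and at 198, 178 and 114 TPM in the same order of groups. Here both dopamine groups, which also received ascorbic acid, lay below PBS. Of 30 targets outside glycolysis, 20 rose and 1 fell, with a median of 0.55 and with a median of 0.38 by total gene reads. Their summed level was 1032 to 1274 TPM in Acute 1 h, 1545 to 1778 TPM in Chronic 1 h and 2112 to 3812 TPM in PBS. ANGPTL4, a regulator of lipoprotein lipase, rose by 1.97, the metastasis suppressor NDRG1 by 1.18 and the vasodilator peptide gene ADM by 1.28. The calls of ANGPTL4, ADM, BNIP3, DDIT4 and HK2 were lost in the fit over all 15 libraries.

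Of 28 glycolysis genes 11 rose and 2 fell by exon reads, and 6 rose and 7 fell by total gene reads. The median of the list was 0.22 by exon reads, against 0.01 over all genes tested. By total gene reads it was 0.02, against -0.09 over the same genes. SLC16A3, the lactate exporter gene, rose by 1.36 and PDK1, a pyruvate dehydrogenase kinase gene, by 1.08. The pyruvate kinase gene PKM fell by 0.61. Of 19 circadian clock genes 12 rose and none fell by exon reads, and 8 rose and 3 fell by total gene reads. HLF, BHLHE41, NR1D1 and DBP, which are output and repressor genes of the clock, rose by 1.01, 1.00, 0.84 and 0.71. PER1, which is also an immediate early gene, had a log2 fold change of -0.15 and was not called by exon reads. The hour of day at which each culture was collected is not given in the sources used here.

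Antioxidant genes were mostly higher in the chronic libraries. NQO1, a quinone reductase gene and NRF2 target, was at 33.0, 30.9 and 34.7 TPM in Acute 1 h and at 63.8, 83.1 and 62.9 TPM in Chronic 1 h. PBS lay lowest, at 19.3 to 22.5 TPM, so the 3 groups were ordered without overlap. Of 23 tested NRF2 genes 13 rose and 6 fell, with a median of 0.40. By total gene reads 12 rose and 7 fell, with a median of 0.19. HMOX1, which degrades heme, rose by 1.03, the cystine importer gene SLC7A11 by 0.77, and the ferritin chain genes FTL and FTH1 by 0.62 and 0.52. Thioredoxin (TXN) fell by 0.43. Of 7 tested metallothionein and zinc exporter genes 4 rose and 1 fell, and 2 and 1 by total gene reads. MT1X and MT2A rose by 0.92 and 0.73, and reads of MT1X may be shared with its close relatives. Of 13 tested genes that handle dopamine 4 rose and 2 fell by exon reads, with a median of -0.14, and 6 rose and 3 fell by total gene reads, with a median of 0.09. The 4 that rose by exon reads were the sulfotransferase genes SULT1A1 and SULT1A3, the monoamine oxidase gene MAOA and DCT, which rearranges dopachrome in pigment cells. The falls were in GCH1, for the cofactor of dopamine synthesis, and in the aldehyde dehydrogenase gene ALDH1A1. SULT1A3 has a near-identical copy (SULT1A4). SULT1A1 lay at 0.228 to 0.443 TPM in Acute 1 h and 1.02 to 1.26 TPM in Chronic 1 h.

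Stress programs were divided. Of 28 ATF4 and unfolded protein response genes 12 rose and 7 fell by exon reads, but 8 rose and 14 fell by total gene reads. Within this list the stress factor genes CEBPB and DDIT3 rose by 0.97 and 0.61, and the chaperone genes CALR and HSP90B1 fell by 0.59 and 0.47. Of 20 heat shock genes 8 rose and 6 fell (3 and 9 by total gene reads), and of 24 p53 and GADD45 genes 10 rose and 6 fell (5 and 8 by total gene reads). By total gene reads 3243 of all 16803 genes rose and 6166 fell, with a median of -0.09. The medians of these lists by total gene reads were near it, at -0.12, -0.13 and -0.01.

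Several genes of glutamatergic and mature neuronal identity were higher in the chronic libraries. GRIA2, the AMPA receptor subunit that limits calcium entry, was at 44.9, 50.7 and 47.6 TPM in Acute 1 h and at 123, 101 and 115 TPM in Chronic 1 h. PBS, at 120 to 126 TPM, overlapped the chronic and not the acute libraries. Of 11 NMDA and AMPA receptor subunits 4 rose, namely GRIA2 by 1.15, GRIA1 by 0.64, GRIN1 by 0.53 and GRIN2B by 0.39, and GRIN3A fell by 0.62. GRIN1 was not called by total gene reads. Of 13 GABA receptor subunits 6 rose and 2 fell, with GABRA4 at 1.59. GABRG3 was at -0.66 by exon reads and at 0.13 by total gene reads. The forebrain excitatory factor genes NEUROD2 and NEUROD6 and the vesicular glutamate transporter gene SLC17A7 rose by 1.24, 1.00 and 1.25, while the cortical factors EMX2, NEUROG2, PAX6 and TBR1 fell by 0.67, 0.45, 0.30 and 0.23. Of the 13 cortical glutamatergic markers 3 rose and 5 fell, and they summed to 1483 to 1686 TPM in Acute 1 h, 2039 to 2354 TPM in Chronic 1 h and 2456 to 2610 TPM in PBS. Of 20 pan-neuronal markers 13 rose and 2 fell by exon reads, with a median of 0.19 against 0.01 over all genes tested. By total gene reads 3 rose and 6 fell, with a median of -0.04 against -0.09.

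The striatal markers had no common direction. Of the 26 tested, 7 rose and 9 fell, and their summed level overlapped, at 518 to 544 TPM in Acute 1 h and 516 to 552 TPM in Chronic 1 h, below the summed level of the cortical list. ARPP21, which encodes a regulated phosphoprotein of medium spiny neurons, was at 8.35 to 8.86 TPM in Acute 1 h and at 17.7 to 19.4 TPM in Chronic 1 h, with PBS at 12.6 to 15.2 TPM. The progenitor factors DLX1 and DLX2 rose by 0.57 and 0.53. ISL1 and EBF1, factors of the direct pathway neurons, fell by 1.22 and 1.10. DLX1 and ISL1 were not called by total gene reads. PPP1R1B, FOXP1 and BCL11B were not called, at log2 fold changes of -0.31, 0.13 and 0.18. DRD1 and DRD2 had values of -0.16 (SE 0.27) and 0.15 (SE 0.18) and were not called at these low levels. The adenosine receptor gene ADORA2A, at 2.09 to 4.00 TPM and 4.30 to 6.71 TPM, rose by 0.77 (SE 0.24, edgeR adjusted p = 0.0185). That call was lost without Acute 1 h replicate 2, Acute 1 h replicate 3 or Chronic 1 h replicate 1.

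Among 22 genes that turn receptor signals off, 5 fell (22.7%) and 4 rose (18.2%) by exon reads, near the 22.2% and 21.8% of all genes tested. By total gene reads 9 fell and 6 rose, where 6166 of all 16803 genes fell and 3243 rose. As a list they did not stand out by exon reads. All 5 that fell by exon reads encode RGS proteins, which speed up the inactivation of G proteins. They were RGS5, RGS4, RGS8, RGS2 and RGS16, with log2 fold changes from -1.96 to -0.34. RGS14 and RGS17 rose by 0.40 and 0.35, calls lost by total gene reads. The further falls by total gene reads were in GRK2, GRK6, ARRB1 and ARRB2, kinases and arrestins that uncouple receptors. RGS4 was at 28.8 to 30.0 TPM in Acute 1 h and 11.9 to 14.8 TPM in Chronic 1 h, with PBS at 15.8 to 18.8 TPM. RGS5 is also a pericyte marker. Of 24 striatal signaling genes 10 fell and 6 rose, the first including the protein kinase A subunit genes PRKACA, PRKAR1A, PRKAR2A and PRKAR2B and the second PRKACB. Of 12 tested neuropeptide genes 5 fell and 3 rose (5 and 1 by total gene reads). The medium spiny neuron peptides TAC1 (substance P) and PENK (enkephalin) fell by 0.87 and 0.74, ADCYAP1 (PACAP) by 1.51 and TRH by 1.44, and TAC3 (neurokinin B) rose by 0.84. The calls of TAC1 and PENK were lost in the fit over all 15 libraries. The prodynorphin gene PDYN was at 0.360 to 0.910 TPM and was not tested.

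Astrocyte and radial glia markers were mostly higher. GFAP, the intermediate filament gene of astrocytes and radial glia, was at 6.57, 5.70 and 5.67 TPM in Acute 1 h, at 36.4, 33.5 and 29.0 TPM in Chronic 1 h and at 12.4, 10.7 and 8.39 TPM in PBS. Chronic libraries lay above all others, and the fitted rise was 5.14-fold (log2 fold change 2.36, SE 0.09, edgeR adjusted p = 1.07e-08). Of 16 astrocyte and radial glia markers 12 rose and 2 fell, with a median of 0.56 (9 and 3 by total gene reads). The glutamate transporter gene SLC1A3 rose by 0.87, the angiotensinogen gene AGT by 1.81 and the matrix gene TNC by 0.89, while the gap junction gene GJA1 fell by 1.18. The list summed to 1629 to 1707 TPM in Acute 1 h, 2081 to 2102 TPM in Chronic 1 h and 1583 to 1761 TPM in PBS. Of 6 tested oligodendrocyte lineage markers 2 fell, OLIG1 by 1.54 and PDGFRA by 0.57, and 1 rose. The calls of OLIG1 and PDGFRA were lost when 1 library was left out. Of 8 choroid plexus and ciliated cell markers 6 fell and none was called higher, led by the potassium channel gene KCNJ13 at -2.13. Transthyretin (TTR), the defining choroid plexus gene, ranged from 318 to 1186 TPM among the acute libraries and from 311 to 722 TPM among the chronic ones and was not called. Of 227 chromosome 19 zinc finger genes 106 rose and 9 fell, with a median of 0.24, and 56 rose and 25 fell by total gene reads. Of the 13 mitochondrially encoded genes 6 rose and none fell by exon reads, with a median of 0.09. By total gene reads 1 rose and 8 fell, with a median of -0.19, a shift that includes the change of scale between the 2 counts.

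Reads on introns were tested on their own, since recent transcripts still carry introns. Of 20948 genes with enough intron reads, 5021 (24%) were higher and 3546 (16.9%) lower. By total gene reads 7916 of 23836 genes (33.2%) were higher and 6319 (26.5%) lower. Of the genes tested by both exon and intron reads, 1998 were called the same way and 541 the opposite way. Of the 239 DEGs that fell and could be tested, 135 also fell by intron reads and 34 rose, and of the 315 that rose, 162 also rose and 8 fell. EGR3, CCN2 and CCN1 fell by 3.41, 2.75 and 2.84 by intron reads, and GFAP rose by 1.57. FOS, at -0.51 by intron reads, was not called (edgeR adjusted p = 0.307). Very long genes showed the dependence most plainly, since of the 336 tested that span over 500 kb 88 were higher and 97 lower by exon reads, but 228 were higher and 43 lower by total gene reads. EBF2 had 182, 131 and 93 exon reads in Acute 1 h and 49, 42 and 32 in Chronic 1 h. Its intron reads were 33, 36 and 44 in Acute 1 h and 177, 184 and 171 in Chronic 1 h. The neuronal nitric oxide synthase gene NOS1, the adhesion gene CNTNAP2 and TMEM117 had the same opposed pattern, and the kinase gene TAOK3 and the nuclear noncoding RNA MALAT1 the reverse one.

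**Figure D4:**
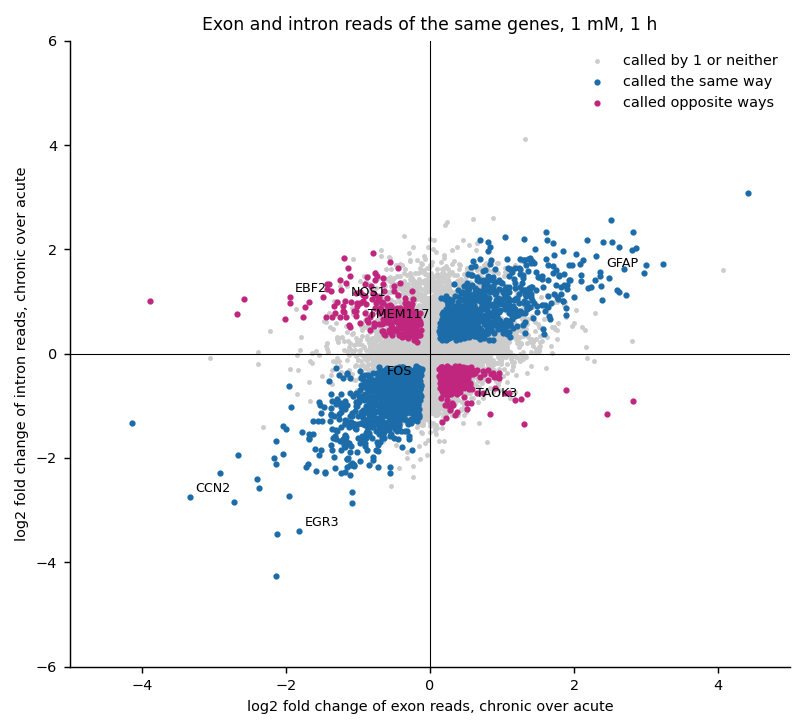
The log2 fold change of Chronic 1 h over Acute 1 h by exon reads (horizontal) and by intron reads (vertical) for genes tested by both. The 1998 genes called the same way are blue and the 541 called opposite ways are magenta, with EBF2, NOS1 and TMEM117 at the upper left and TAOK3 at the lower right.

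The same contrast at 24 h after the last dose uses other libraries, and it has the same difference in day in vitro. It also shares the difference in intron share, at 12.5 to 15.9% in Acute 24 h and 18.9 to 22.4% in Chronic 24 h. The part of either in the agreement below was not tested. There 754 of 17528 genes (4.3%) were called. The 441 DEGs that rose at 1 h had a median log2 fold change of 0.71 at 24 h, and the 310 that fell had -0.76, against -0.03 over all genes. The direction was the same for 657 of the 751 DEGs (87.5%) and for 61.4% of all genes tested. Across all genes the 2 sets of fold changes had a Pearson r of 0.48, a description in which genes are not independent replicates. Replicate 1 of Acute 24 h stands apart, with EGR1 at 696 TPM against 27.8 and 25.8 TPM in the other 2. Without it the share of DEGs with the same direction was 92.9% and r was 0.66.

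KRT31, GRIA2, NEUROD2, PDE1A, TAGLN, ACTA2 and RGS4 were called at 24 h in the direction seen at 1 h, with log2 fold changes of 2.69, 1.13, 1.45, 1.40, -2.33, -1.83 and -1.12. FOSB, EGR1, FOS and JUNB were not called at 24 h, where without Acute 24 h replicate 1 their values were -0.08, 0.42, 0.27 and 0.06. In a test of the difference between the times, 1 of 17528 genes (0.00571%) was called by edgeR, and 1429 genes (8.15%) had an unadjusted p under 0.05. DESeq2's Wald test called 21. The gene was NR4A3, an orphan nuclear receptor, which was lower after chronic dosing at 1 h (-0.84) and higher at 24 h (1.59). It was at 7.86 to 13.8 TPM in Acute 24 h and at 23.5 to 31.7 TPM in Chronic 24 h. Without Acute 24 h replicate 1 the test called 18 genes, FOSB, CCN2, NR4A1, DUSP1, RGS2, SOCS3 and GFAP among them. Leaving out any other library gave 0 calls.

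The same contrast at 1 uM, between Chronic 1 h and Acute 1 h libraries of another experiment with the same days in vitro, called 413 of 17239 genes (2.4%). The intron share overlapped there, at 20.2 to 31.2% in Acute 1 h and 15.3 to 23.6% in Chronic 1 h, unlike at 1 mM. In the 1 uM experiment same-numbered Acute 1 h and Chronic 1 h libraries deviated together from their group means (correlations 0.17, 0.54 and 0.46). Acute replicate 1 with chronic replicate 3 gave 0.16, and acute replicate 3 with chronic replicate 1 gave 0.35. Replicate 2 was thus set apart, but a pairing of replicates 1 and 3 by number was not shown. Replicate 2 held 11.0 and 12.2% mitochondrial reads in these groups, against 5.23 to 7.14% in the others. With the replicate number as a block, 2464 of 17907 genes (13.8%) were called. Of the 734 DEGs of 1 mM with a value at 1 uM, 387 (52.7%) had the same direction, against 52.0% of all genes. Across all genes r was 0.00. In the test of the difference between the doses 400 genes (2.32%) were called without the replicate block and 2371 (13.2%) with it. Dose and experiment changed together, so their effects cannot be told apart in this test. The 1 uM libraries held 5755919 to 12911212 exon reads, and the 1 mM libraries 3.14 to 3.38% mitochondrial reads. The count without the block ranged from 52 without 1 mM Acute 1 h replicate 3 to 1220 without 1 uM Acute 1 h replicate 2. Only without 1 uM Acute 1 h replicate 1, with 287 genes, did this count stay within 1.5 times. CCN2 was at 21.9 to 39.2 TPM in 1 uM Acute 1 h and at 21.6 to 27.6 TPM in 1 uM Chronic 1 h. Its difference between doses was -3.13 (SE 0.37, edgeR adjusted p = 0.003), and those of TAGLN, ACTA2 and MYL9 were -3.23, -2.88 and -3.64. IER3 fell by 1.13 at 1 mM and rose by 1.04 at 1 uM. EGR1, EGR2, EGR3, FOS and FOSB were lower after chronic dosing at both doses, with values at 1 uM of -1.85, -1.17, -1.52, -1.39 and -1.55. For EGR1 the fall at 1 uM was the larger by 1.16 (edgeR adjusted p = 0.0175). With the block CCN2, TAGLN, ACTA2, MYL9, IER3 and EGR1 stayed called, at -3.15, -3.27, -2.87, -3.75, -2.19 and 1.14. FOSB, FOS, GRIA2 and RGS4 were called in addition, at -1.60, 0.69, 1.10 and -1.57. GFAP rose at 1 uM too, by 1.96, from levels of 0.179 to 0.340 TPM. GRIA2, at 0.02, ZDHHC23 and RGS4 were not called there.

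**Figure D5:**
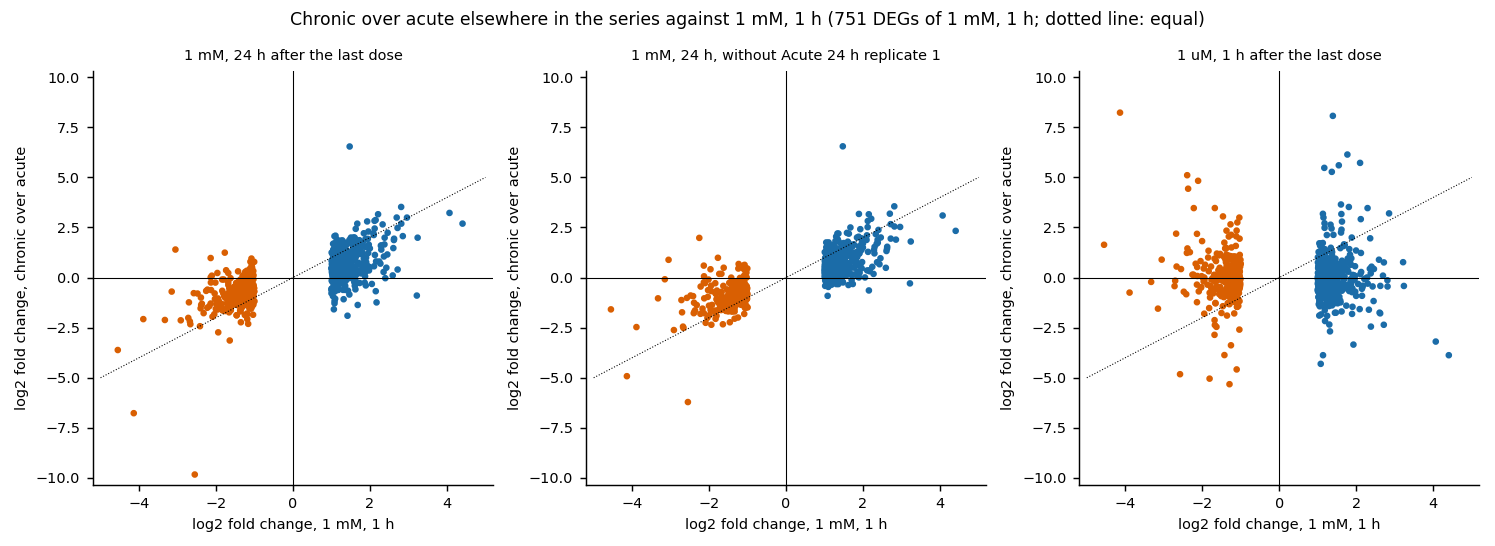
Log2 fold changes of chronic over acute dosing for the 751 DEGs of 1 mM at 1 h (horizontal) against the same contrast at 24 h, at 24 h without Acute 24 h replicate 1, and at 1 uM (vertical). Points follow the direction of the dotted line of equal values at 24 h, where 87.5% share the sign, and scatter about 0 at 1 uM, where 52.7% do.

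A separate time course, collected on day in vitro 50 after 2 to 5 daily doses of 1 mM, shows the levels at 1 age. FOSB was at 2.10 to 4.49 TPM after 2 doses and at 2.76 and 2.37 TPM in the 2 libraries after 5 doses, with an ascorbic acid control at 0.400 to 0.777 TPM. All of these lay below the 5.68 to 8.53 TPM of Chronic 1 h and the 54.0 to 76.5 TPM of Acute 1 h. EGR1 was at 159 to 237 TPM after 2 doses and at 245 and 189 TPM after 5, with the control at 26.95 to 35.0 TPM. GFAP was at 25.2 and 37.3 TPM after 5 doses, within reach of Chronic 1 h, and at 14.4 to 21.8 TPM in the control. CA9, KRT31 and ZDHHC23 did not have their Chronic 1 h levels there. After 5 doses CA9 was at 0.465 and 0.779 TPM, KRT31 at 1.85 and 0.969 TPM and ZDHHC23 at 1.99 and 2.76 TPM. No test was made between experiments.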

How the data were processed

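RNA-seq tables of 6 libraries were compared, 3 per group, with the other 1 mM, 1 uM and time course libraries used beside them. With CLC Genomics Workbench the authors mapped reads to GRCh38 (hg38, Ensembl genes), and the deposited files give, per gene, counts of exon, intron and total gene reads and TPM. The strand setting and the sequencing provider of each library are not given in the sources used here. Each file held 60676 genes. Intron reads were taken as deposited, and they equal total gene reads minus exon reads. Genes were filtered with filterByExpr (minimum count 10), scaled by TMM and tested with edgeR 4.0.16 (glmQLFit and glmQLFTest, R 4.3.3) on the 2 groups alone, with Benjamini-Hochberg adjustment over all genes tested. DESeq2 1.42.0 was an alternative. On simulated counts edgeR found 82 of 100 genes changed 2-fold and 100 of 100 changed 4-fold, with 17 false calls. The changed genes were few among the 16803 and left out those with the lowest counts. In the data 7388 genes were called, so the simulation is an easier setting. The limits of a DEG were set for this comparison on TPM. Named genes were the 12 with the largest change in each direction (mean TPM of at least 5, no overlap), up to 4 per list with the smallest adjusted p, genes the study names, up to 3 per direction of each interaction and up to 3 per direction with opposite exon and intron calls. Other list members were named as examples after their values were seen. The members and the 45 gene lists were chosen with earlier results of these data known. By the correlation of their deviations, replicate numbers set replicate 2 of the 1 uM experiment apart, and showed no pairing in the 1 mM experiment. Promoters were read from RefSeq. Total exon reads per library limit the precision, and intervals were not computed for counts.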

Additional observations from a re-analysis of the deposited data

Results flagged for a closer look

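The difference between chronic and acute dosing at 1 h differed between 1 mM and 1 uM for 400 genes by edgeR's interaction test with Benjamini-Hochberg adjustment. With the replicate number as a block, it did so for 2371 genes. The 2 doses come from different experiments, so dose and experiment cannot be told apart. Of the genes named here that passed it, 12 had a lower log2 fold change at 1 mM than at 1 uM. The differences were -6.16 for RSC1A1, -5.69 for EDN1, -3.85 for DKK2, -3.64 for MYL9, -3.23 for TAGLN, -3.13 for CCN2, -2.88 for ACTA2, -2.39 for PTGER3, -2.31 for CCN1, -2.19 for IER3, -1.48 for FSTL1 and -1.30 for CCNB1. The other 4 were higher, by 2.46 for EGF, 2.15 for ZDHHC23, 1.31 for TARBP1 and 1.16 for EGR1. RSC1A1 lies within DDI2 and its reads are uncertain.

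The difference between 1 h and 24 h passed the same kind of test for 1 gene, NR4A3, with a value of -2.42 (edgeR adjusted p = 0.0186).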

How the results depend on the processing

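For DEGs of 1 mM Chronic 1 h against 1 mM Acute 1 h, the 751 genes (441 higher, 310 lower) became 490 with at least 10 reads required in every library (248 higher), 367 with a mean of at least 5 TPM (169 higher, 198 lower) and 7277 with no fold threshold. With no fold threshold there were 3561 for DEGs of 1 mM Chronic 1 h against 1 mM Acute 1 h, higher, and 3716 for DEGs of 1 mM Chronic 1 h against 1 mM Acute 1 h, lower. A fit over all 15 libraries of the 1 mM experiment gave 502 DEGs (277 higher, 225 lower). It called 2008 genes at an adjusted p under 0.05, against 7388 in the main fit. Leaving out 1 library gave 703 to 828 DEGs. The 400 genes that differed between doses became 1336 by total gene reads, 1308 by DESeq2's Wald test, 252 with no filter and 52 to 1220 with 1 library left out. The 1 gene that differed between times became 0 by total gene reads, 21 by DESeq2's Wald test and 0 to 18 with 1 library left out. The cause was not tested.

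Acute 1 h and Chronic 1 h libraries of 1 mM with the same replicate number did not deviate together (correlations 0.0048, -0.0917 and 0.0031), nor did those at 24 h (-0.0218, -0.2096 and -0.0019), whereas those of 1 uM did (0.1665, 0.542 and 0.4633). At 1 uM replicates 1 and 3 also did so across numbers (0.1631 and 0.3475). A replicate block gave 776 DEGs (456 higher, 320 lower), 2371 genes between doses, 2464 instead of 413 in the 1 uM contrast (added once the data had been seen) and 1 between times.

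Of 225 named genes, 197 kept direction and call by total gene reads, 220 by DESeq2's Wald test and 148 in the fit over all 15 libraries. Besides those given above, calls lost in the last include MCM2, HLF, MT1X, MT2A, MAOA, CEBPB, GRIN2B, DUSP6, MALAT1 and H2AC18. Total gene reads turned the direction of TMEM117 (0.59, with 0.61 by unique reads), TAOK3 (-0.0891) and GABRG3 (0.13). Total gene reads with DESeq2's Wald test, which was added once the data had been seen, gave 0.55 for TMEM117, -0.12 for TAOK3, 0.0912 for GABRG3, a log2 fold change of ADORA1 of -0.0022 and -0.0098 for MT-ATP6. With 3 libraries a group, differences in genes near 1 TPM, such as DRD1, were not resolved at this depth.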
